A study of Mus musculus with 8 samples.

Results

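The mouse Hox genes were described as a family: every protein-coding gene named Hoxa, Hoxb, Hoxc or Hoxd plus a number, 39 of the 55487 genes in the deposited tables. The rule used names and gene type only, but the family was chosen with earlier results of these data known. On GRCm38, HoxA (11 genes) lies at chr6:52155590-52260880, HoxB (10 genes) at chr11:96194316-96368256, HoxC (9 genes) at chr15:102921103-103036852 and HoxD (9 genes) at chr2:74668310-74765142. All 39 gene identifiers matched the annotation with their version.

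Hox genes encode homeodomain transcription factors that give cells along the body axis their positional identity. The number in a name is the paralogue group, and genes sit in each cluster in the order in which they are used from head to tail, low numbers towards the anterior. Retinoic acid and the caudal factors switch clusters on in the embryo, Trithorax proteins keep them active, Polycomb complexes keep them silent, and PBX, MEIS and PREP proteins bind DNA together with HOX proteins. In the lung, Hoxa5 and the HoxB genes are known from the mesenchyme of the developing organ.

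Expression was measured by RNA-seq in 4 mouse lines of lung squamous cell carcinoma, which the submitters took from genetically engineered tumour models, in a study of the loss of ACKR3. The labels name the lines PL1, PL12, PLA and PLA4, each with replicates 1 and 2, and record no treatment, passage or culture for any of them. They do not spell out the letters PL and PLA, the alleles the lines carry, the cell type in which the models were engineered, or whether a line is 1 clone. Lines PL1 and PL12 are called the PL lines here and PLA and PLA4 the PLA lines, each pair a family, and p-values that rest on the 2 libraries of a line measure library-to-library spread, possibly a technical one.

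Ackr3, the atypical chemokine receptor gene that checks the line names, stood at 86.3 and 33.2 CPM in PL1 and at 25.3 and 26.3 CPM in PL12, against 0.0487 and 0.0254 CPM for PLA and 0.387 and 0.228 CPM for PLA4 (CPM, counts scaled by library size with TMM, replicates 1 and 2). The libraries held 48857960 to 142458281 counts, so 3 counts, used below as the floor, equal 0.0208 to 0.0614 CPM. The libraries of PL12 and of PLA were alike, whereas those of PL1 and of PLA4 stood apart: of 18648 genes tested, 2501 differed over 2-fold between the libraries of PL1 and 2731 between those of PLA4, against 526 in PL12 and 114 in PLA. Squamous markers were uneven, with Trp63 at 29.2 and 26.3 CPM in PL12, where the other 6 libraries held 306 to 386 CPM. Of 10 squamous markers, 7 were called lower in PL12 than in PL1 and 1 higher, where 12.5% and 11.2% of all genes tested were. Of the lung markers, Sftpa1, Scgb1a1 and Scgb3a2 had 0 counts in all libraries, and Nkx2-1 exceeded 1 CPM in PL12 alone (8.86 and 8.69 CPM). Foxj1 was at 45.4 and 61.7 CPM in PL12, 29.0 and 28.1 CPM in PLA and 0.533 to 9.17 CPM elsewhere. Hopx was at 102 and 99.2 CPM in PLA and 0.564 to 15.2 CPM elsewhere. The bulk profiles cannot tell fewer expressing cells from less RNA per cell.

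Of the 39 members, 22 had an entry in the RefSeq promoter table (GRCm38.p6, 24 start sites). The 250 bases before the start are shown for 3 of them: for Hoxb4, lower in both PLA lines than in both PL lines, for Hoxb8, which differed between libraries of the same line, and for Hoxa5, the member best known from lung. Capitals mark matches, on either strand, to the TATA box TATAAA, the CCAAT box CCAAT, the HOX-PBX site TGATNNAT and the retinoic acid response element (AGGTCA repeated in the same direction after a spacer of 5 bases), and a match on the opposite strand appears as its reverse complement. The windows are Hoxb4 at chr11:96318017-96318266 (plus strand), Hoxb8 at chr11:96281655-96281904 (plus strand) and Hoxa5 at chr6:52204588-52204837 (minus strand), each printed 5′ to 3′ on the gene's strand.
Hoxb4: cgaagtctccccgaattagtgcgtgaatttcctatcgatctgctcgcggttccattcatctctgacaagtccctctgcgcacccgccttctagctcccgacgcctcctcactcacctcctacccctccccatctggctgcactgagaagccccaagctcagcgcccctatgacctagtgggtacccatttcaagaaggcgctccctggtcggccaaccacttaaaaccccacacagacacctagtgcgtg
Hoxb8: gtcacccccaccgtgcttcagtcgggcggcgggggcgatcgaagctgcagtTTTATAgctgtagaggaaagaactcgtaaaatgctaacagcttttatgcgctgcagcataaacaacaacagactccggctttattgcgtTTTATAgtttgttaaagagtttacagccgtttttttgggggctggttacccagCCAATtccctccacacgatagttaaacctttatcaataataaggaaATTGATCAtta
Hoxa5: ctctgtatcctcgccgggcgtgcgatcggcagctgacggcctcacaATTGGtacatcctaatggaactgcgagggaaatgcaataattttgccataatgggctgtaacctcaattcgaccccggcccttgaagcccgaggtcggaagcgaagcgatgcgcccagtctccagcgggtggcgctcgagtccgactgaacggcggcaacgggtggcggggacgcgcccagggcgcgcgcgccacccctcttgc

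The Hoxb4 window held 0 matches and 14 CG dinucleotides, the Hoxb8 window 4 matches that do not overlap and 12 CG, and the Hoxa5 window 1 CCAAT box and 28 CG. None of the 3 windows touches an annotated exon of another gene. Over the 24 Hox windows, 4 held a TATA box, 14 a CCAAT box, 4 a HOX-PBX site and 0 the retinoic acid element. Among all 32851 promoter windows of the same length these motifs occurred in 12.4%, 33.8%, 7.68% and 0.00913%. Hox windows were rich in CG, with a median of 12.5 against 6 over all windows, and in GC content (median 58.6% against 52.4%). These matches describe letters in a window and no binding was measured.

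The Hox family was used sparsely and by cluster. In the deposited TPM, which are scaled by transcript length and so allow levels of different genes to be compared, 15 members had 0 counts in all 8 libraries, 10 had counts but stayed under 1 TPM in every line, and 14 reached a line mean of 1 TPM in at least 1 line. PL12 held 10 members at this level, PL1 8, PLA4 3 (2 without PLA4 replicate 2) and PLA 1, that is 25.6%, 20.5%, 7.69% and 2.56% of the 39, whereas 51.2% to 52.2% of the other 21897 protein-coding genes did in each line. Among genes at that level, the members' median was 2.79 TPM in PL12 and 2.18 TPM in PL1, against 20.5 and 22.1 TPM for the other genes.

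PL1 and PL12 differed in their leading cluster. HoxA led in PL1, with a summed level of 32.5 ± 3.01 TPM (SD, n = 2 libraries, as throughout for line means), and HoxB led in PL12, with 32.3 ± 3.04 TPM. In PLA, HoxB held 0.065 ± 0.0495 TPM. In PLA4, HoxB held 16.6 ± 9.21 TPM and HoxC 10.1 ± 13.6 TPM, sums that came largely from Hoxb9 and Hoxc13 and differed between the libraries (10.1 and 23.1 TPM for HoxB, 0.48 and 19.7 TPM for HoxC). HoxD was close to silent everywhere: 8 of its 9 genes had 0 counts in all libraries, and Hoxd8 had 3 counts in each PL1 library and 0 elsewhere.

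**Figure D1:**
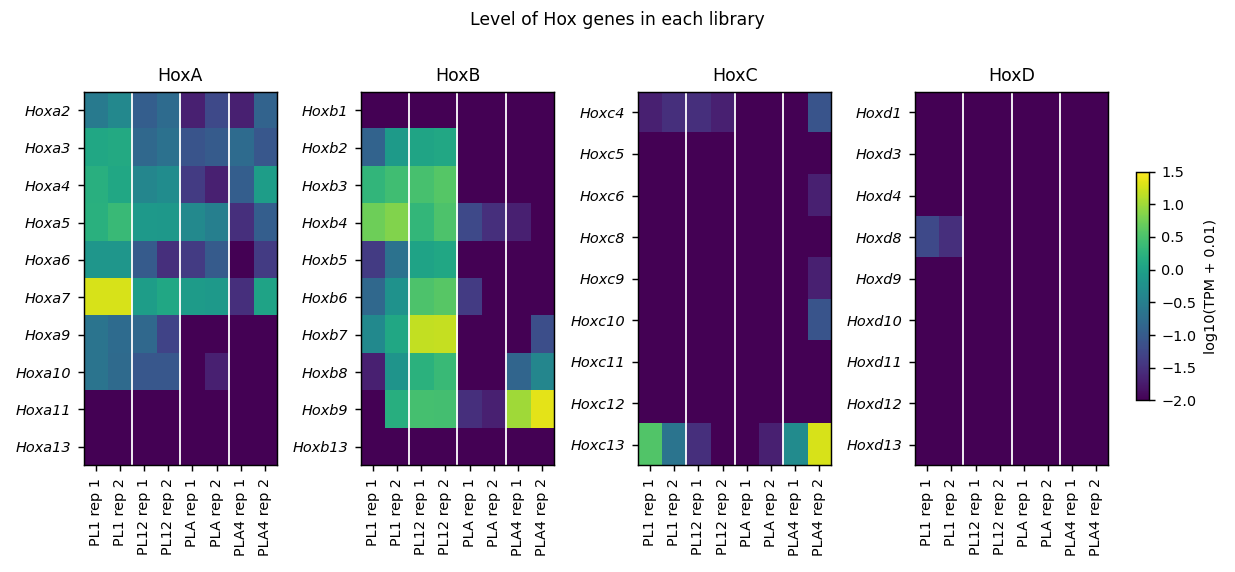
Heat map of log10(TPM + 0.01) for the Hox genes described here (rows, by cluster and paralogue number) in the 8 libraries (columns, replicates 1 and 2 of PL1, PL12, PLA and PLA4). HoxA is lit mostly in PL1, Hoxb2 to Hoxb9 in PL12, Hoxb3 and Hoxb4 in PL1 too, Hoxb9 also in PLA4, and HoxD in no line. Hoxc13 is lit mainly in PLA4 replicate 2, and less in PL1 replicate 1.

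Of the 39 members, 18 had enough counts for the test, a filter that members high in a single line pass through that line: 9 of HoxA, 8 of HoxB, Hoxc13 and none of HoxD. In edgeR's quasi-likelihood test over the 4 line means, 17 of the 18 differed among lines at an adjusted p under 0.05, where 52.9% of all genes tested did. The exception was Hoxa2 (adjusted p = 0.108). Without 1 library of PL12 or of PLA the count was 9 or 10, and without 1 of PL1 it was 15. Hoxa3, Hoxa5, Hoxb3, Hoxb4, Hoxb5, Hoxb6 and Hoxb7 passed in every alternative setting.

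Within HoxB, 4 genes separated the PL from the PLA lines. Hoxb2, Hoxb3, Hoxb4 and Hoxb6 were called lower in PLA and in PLA4, each tested against PL1 and against PL12 (4 comparisons), and Hoxb2, Hoxb3 and Hoxb5 had 0 counts in all 4 PLA libraries. In HoxA, Hoxa10 met the same rule at very low counts. That made 5 of 18 tested members lower and 0 higher, where 0.767% of all genes tested were called lower in all 4 and 1.23% higher. The 4 comparisons share libraries, so their calls are not independent of each other. Members at 0 in the PLA lines passed the count filter through the PL lines and could only be called lower. Without any 1 library of PL12 or PLA the count was 2, Hoxb3 and Hoxb4. It was 3 without PL1 replicate 2 or PLA4 replicate 1, and 6 without PL1 replicate 1 or PLA4 replicate 2.

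Hoxb3, a factor of the hindbrain and pharyngeal region, stood at 3.96 and 4.65 CPM in PL1 and at 6.47 and 7.04 CPM in PL12, and had 0 counts in every PLA library. The PL libraries held 1954 counts between them, and no PL library came near the PLA libraries. Against a floor of 3 counts over the 4 PLA libraries, its level in the PL lines was at least 949-fold higher. Each of the 4 comparisons was called (edgeR, adjusted p 0.000789 to 0.00426), and Hoxb3 passed in all 16 settings. The antisense gene Hoxb3os shares 52.9% of the exonic bases of Hoxb3 and 27.3% of those of Hoxb2 on the opposite strand, and a strand setting for the read assignment was not stated. Hoxb3os itself had 11 to 49 counts in the PL libraries and 0 in the PLA libraries, so its share in the Hoxb3 and Hoxb2 values cannot be told apart.

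Hoxb4, which marks the posterior hindbrain and is known for expanding blood stem cells, stood at 8.84 and 10.7 CPM in PL1 and at 3.56 and 5.53 CPM in PL12. Levels were 0.0731 and 0.0339 CPM in the PLA libraries, 0.0155 and 0 CPM in those of PLA4. All PL libraries lay above all PLA libraries, and PL1 lay above PL12. The ratio of the family means was 234, on 2762 counts in the PL and 15 in the PLA libraries. Relative to PL1 the log2 difference was -7.48 ± 0.76 (SE) in PLA and -10.16 ± 0.90 in PLA4 (edgeR, adjusted p = 0.00191 and 0.0049), and Hoxb4 too passed in all 16 settings. PL12 and PL1 did not differ by the test (log2 difference -1.10 ± 0.56, adjusted p = 0.2, edgeR).

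Hoxb2, a gene of hindbrain patterning, stood at 0.184 and 0.829 CPM in PL1 and at 1.35 and 1.63 CPM in PL12, with 0 counts in the PLA lines. Its PL1 libraries differed 4.50-fold, and replicate 2 approached PL12. The mean of the PL lines was at least 171-fold higher, but PL1 alone was at least 40.7-fold above PLA and 46.2-fold above PLA4. The largest adjusted p of the 4 comparisons was 0.0402 (edgeR), and the comparison of PLA4 with PL1 passed in 8 of 15 settings (lost without any 1 library of PL12, PLA or PLA4, adjusted p 0.0597 to 0.12, edgeR). All 4 calls of Hoxb2 were lost without either PL12 library (0.0503 to 0.12). Hoxb6, a gene of the thoracic region, was at 0.173 and 0.555 CPM in PL1, at 4.24 and 4.94 CPM in PL12, at 0.0244 and 0 CPM in PLA and at 0 in PLA4. Every PL library lay above every PLA library, with PL12 highest. The ratio of family means was 406 (95% counting interval 139 to 1969, on 3 counts in the PLA lines), and 203 without PLA replicate 2 (69.5 to 985). PL1 alone exceeded PLA 29.9-fold (10.2 to 145, on 3 counts) and PLA4 at least 33.2-fold. The largest adjusted p of Hoxb6 was 0.0367 (edgeR), for PLA4 against PL1, a call lost without any 1 library other than PL1 replicate 1. The call of Hoxb6 for PLA against PL1 passed in 10 of 16 settings. It was lost without PL1 replicate 2 or any 1 library of PL12 or PLA.

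Hoxb5 and Hoxb7 had the same order of lines and missed in the comparison of PLA4 with PL1. Hoxb5, whose product acts in the enteric nervous system and gut and lung mesenchyme, stood at 0.0575 and 0.247 CPM in PL1, 1.56 and 1.79 CPM in PL12 and 0 in the PLA lines. The mean of the PL lines was at least 157-fold higher, but PL1 alone was at least 12.2-fold above PLA and 13.9-fold above PLA4. The comparison that missed gave an adjusted p of 0.0552 (edgeR). Hoxb7, a trunk gene also studied in carcinomas, was at 0.345 and 0.873 CPM in PL1, 11.4 and 12.3 CPM in PL12, 0 in PLA and 0 and 0.0415 CPM in PLA4. The libraries of the families did not overlap for either gene, the ratio of family means for Hoxb7 was 600 (300.1 without PLA4 replicate 1, at least 770 without PLA4 replicate 2), and its adjusted p was 0.057 for PLA4 against PL1.

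**Figure D2:**
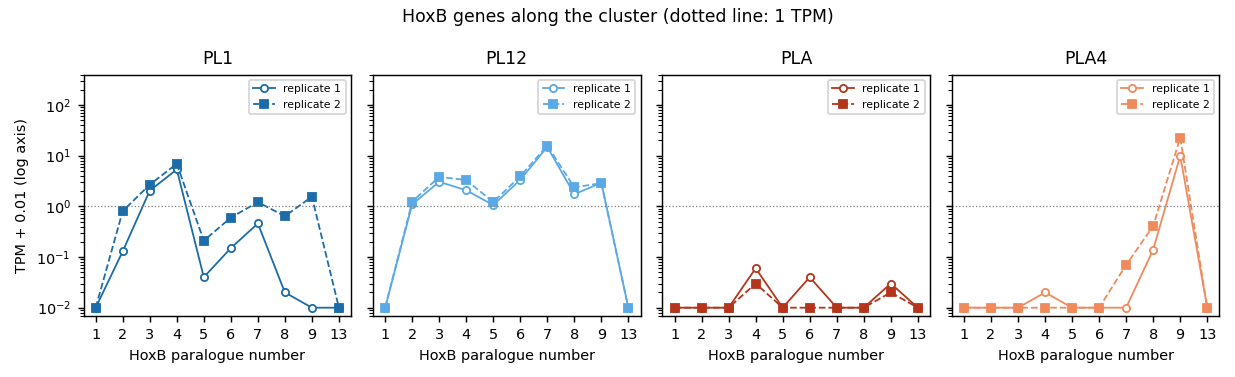
TPM + 0.01 on a log axis for the 10 HoxB genes by paralogue number in each line (open circles replicate 1, filled squares replicate 2, dotted line 1 TPM). PL12 holds all genes from Hoxb2 to Hoxb9 above 1 TPM, PL1 holds Hoxb3 and Hoxb4 in both libraries, PLA holds none, and PLA4 reaches 1 TPM at Hoxb9 alone.

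The posterior part of expressed HoxB broke this pattern. Hoxb9, a gene of the thoracic region and lung mesenchyme, was at 0 and 2.41 CPM in PL1, 5.01 and 4.78 CPM in PL12, 0.0244 and 0.00846 CPM in PLA and 14.6 and 32.5 CPM in PLA4. PLA4 held the highest libraries and PLA 2 of the 3 lowest, so the families overlapped. PLA4 exceeded PLA by a ratio of 1434, on 6580 against 4 counts (log2 difference 10.38 ± 2.36, adjusted p = 0.021, edgeR). The ratio was 890 without PLA4 replicate 2 and 2782 without PLA replicate 1 (95% counting interval 499 to 109897, on 1 count). PLA4 and PL12 were not called different (ratio 4.81, adjusted p = 0.285, edgeR). The call for PLA4 against PLA held in 12 of 16 settings and was lost without any 1 library of PL12 or PLA (adjusted p 0.0551 to 0.143, edgeR).

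Hoxb8, its neighbour 5.31 kb away, known from microglia and grooming behaviour, was at 0.0115 and 0.696 CPM in PL1, 3.05 and 3.02 CPM in PL12, 0 in PLA and 0.132 and 0.623 CPM in PLA4. PL12 was highest, PLA had no count, and the libraries of PL1 and PLA4 overlapped. Hoxb8 was at least 244-fold lower in PLA than in PL12 (adjusted p = 0.0235, edgeR), a bound that was 120 without PLA replicate 1 and 125 without PLA replicate 2. Without any 1 library of PL12 or PLA the adjusted p was 0.0845 to 0.0993 (edgeR). In PLA4 the level dropped steeply from Hoxb9 to Hoxb8 and further to Hoxb7, in TPM from 16.3 to 0.265 and 0.03. Both ends of the cluster were silent: Hoxb13, 74.0 kb beyond Hoxb9, and Hoxb1, 11.7 kb beyond Hoxb2, had 0 counts in every library. Beyond the cluster, Snx11 was measured at 21.3 to 39.7 CPM and Skap1 at 0.0762 to 0.483 CPM in all lines.

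PL12 and PL1 differed within HoxB as well. Hoxb5, Hoxb6 and Hoxb7 were higher in PL12, with ratios of 11.0, 12.6 and 19.5 (edgeR, adjusted p = 0.045, 0.0392 and 0.0286). Those ratios were 6.78, 8.26 and 13.6 without PL1 replicate 1 and 29.1, 26.6 and 34.4 without PL1 replicate 2. Each of these calls was lost without any 1 library of PL12 or without PL1 replicate 1. The calls of Hoxb5 and Hoxb7 were also lost without either PLA library (log2 difference 3.45 and 4.29). Together with Hoxa3 and Hoxa6, which were lower, 3 of 18 tested members were higher in PL12 and 2 lower, where 11.2% and 12.5% of all genes tested were. The 5 became 1 without PL1 replicate 1, 0 and 1 without PL12 replicates 1 and 2, 2 without either PLA library and 9 without either PLA4 library. Hoxb3 (log2 difference 0.65 ± 0.30, adjusted p = 0.192, edgeR) was not called.

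HoxA was highest in PL1, and part of it also followed the families. Of 9 tested HoxA members, 4 had every PLA library below every PL library and 0 had every one above. Of all genes tested, 7.18% and 8.56% did. Hoxa7, a gene of trunk identity, had the highest line mean of all members, 19.3 TPM in PL1. It stood at 24.0 and 22.9 CPM in PL1, 1.17 and 1.53 CPM in PL12, 1.02 and 0.923 CPM in PLA and 0.00774 and 1.27 CPM in PLA4. Both PL1 libraries lay far above the other 6, which overlapped across lines. The ratio of PL1 to PL12 was 17.4, to PLA 24.0 and to PLA4 36.7 (18.5 without PLA4 replicate 1, 3023 without PLA4 replicate 2, on 1 count, with a 95% counting interval of 543 to 119409). The test over lines passed (adjusted p = 0.0332, edgeR), and no single pair of lines did (adjusted p = 0.0872, 0.0623 and 0.0849 for these pairs). Without any 1 library of PL1, PL12 or PLA the test over lines gave 0.077 to 0.104. The PLA4 libraries of Hoxa7 differed 164-fold, on 1 and 183 counts. The antisense gene Hoxaas3 shares 20.4% of the exonic bases of Hoxa7, with 46 and 61 counts in PL1.

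Hoxa3, which directs the thymus and parathyroid, was the HoxA member with the steadiest difference. It stood at 2.04 and 1.93 CPM in PL1, 0.246 and 0.312 CPM in PL12, 0.122 and 0.152 CPM in PLA and 0.116 and 0.125 CPM in PLA4. The PL1 libraries lay above all others and PL12 above both PLA lines. PL1 exceeded PL12 7.11-fold, PLA 14.5-fold and PLA4 16.5-fold (edgeR, adjusted p = 0.00461, 0.00174 and 0.00605), and the comparisons with PLA and PLA4 passed in all 15 settings. The comparison with PL12 was lost without PL12 replicate 1 (adjusted p = 0.055, edgeR). Overlapping genes share at most 8.36% of its exonic bases each. Between PL12 and PLA4 the difference was 2.32-fold (adjusted p = 0.0405, edgeR), and it passed in 6 of 15 settings (lost without any 1 library of PL12, PLA or PLA4, 0.0695 to 0.185).

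Hoxa5, needed for lung and airway formation, was at 1.98 and 2.57 CPM in PL1, 0.921 and 0.855 CPM in PL12, 0.504 and 0.347 CPM in PLA and 0.0232 and 0.111 CPM in PLA4. Its libraries were ordered by line without overlap, PL1 first and PLA4 last, although neighbours in that order did not all differ by the test: PL1 against PL12 gave an adjusted p of 0.156 and PL12 against PLA 0.218, and PLA4 was 6.35-fold lower than PLA at 0.0304 (edgeR), 3.84-fold without PLA4 replicate 1 and 18.3-fold without PLA4 replicate 2. PL1 exceeded PLA 5.34-fold and PLA4 33.9-fold (adjusted p = 0.0343 and 0.0176, edgeR). The latter ratio was 20.5 without PLA4 replicate 1 and 97.8 without PLA4 replicate 2. The calls for PL1 against each PLA line and for PLA4 against PLA were lost without any 1 library of PL12 or PLA. The call for PLA against PL1 was also lost without PL1 replicate 1 or 2 (log2 difference -2.58 and -2.27), and it passed in 8 of 15 settings.

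Hoxa4, an anterior gene also expressed in lung, was at 1.58 and 1.10 CPM in PL1, 0.389 and 0.487 CPM in PL12, 0.0244 and 0.00846 CPM in PLA and 0.0929 and 0.838 CPM in PLA4. PLA was lowest, and the PLA4 libraries lay on either side of PL12. PLA was lower than PL1 by a ratio of 81.6 (adjusted p = 0.0142, edgeR), and of 158 without PLA replicate 1 (95% counting interval 28.4 to 6249, on 1 count). PLA4 exceeded PLA 28.3-fold (adjusted p = 0.0283, edgeR), 5.66-fold without PLA4 replicate 2, 51.0-fold without PLA4 replicate 1 and 55.0-fold without PLA replicate 1 (9.87 to 2171, on 1 count). Without either PLA library the adjusted p was 0.0916 or 0.112 for PLA against PL1 and 0.124 or 0.164 for PLA4 against PLA (edgeR).

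**Figure D3:**
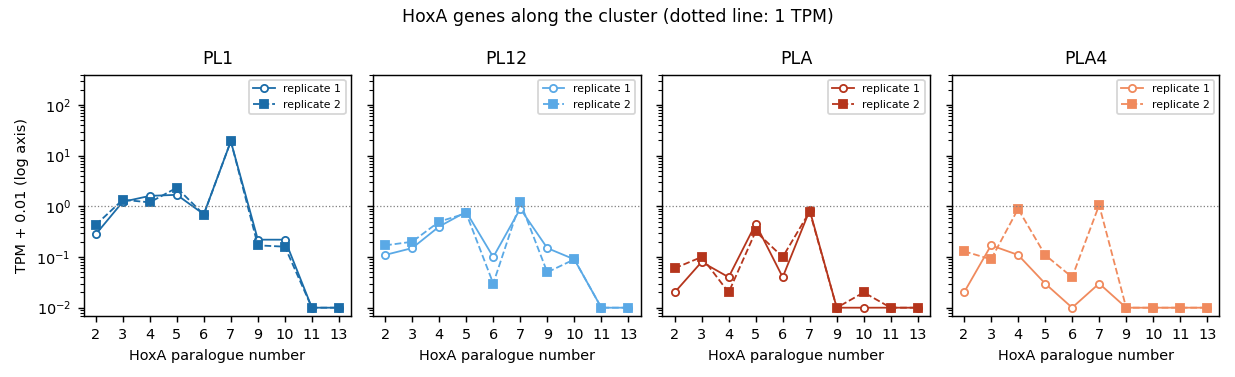
TPM + 0.01 on a log axis for the HoxA genes from Hoxa2 to Hoxa13 by paralogue number in each line (open circles replicate 1, filled squares replicate 2, dotted line 1 TPM). Hoxa7 stands at 19.2 and 19.4 TPM in PL1, and Hoxa11 and Hoxa13 have no counts.

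Hoxa2, Hoxa6, Hoxa9 and Hoxa10 stayed under 1 TPM in every line, with a highest line mean of 0.685 TPM (Hoxa6 in PL1). Hoxa2 patterns the pharyngeal arches, Hoxa9 is known from leukaemia, and both Hoxa6 and Hoxa9 are trunk genes. Hoxa6 stood at 29 and 35 counts in PL1 and at 0 to 5 counts in the other libraries, and was lower in PL12, PLA and PLA4 than in PL1 (edgeR, adjusted p = 0.0365, 0.034 and 0.0344), and these calls were lost without any 1 library of PL1, PL12 or PLA (0.0607 to 0.234). Hoxa9 had 16 and 14 counts in PL1, 3 and 3 in PL12, 1 and 1 in PLA and 0 in PLA4. Hoxa10, a gene of the lumbar region and the uterus, had 17 and 14 counts in PL1, 4 and 8 in PL12, 0 and 1 in PLA and 0 in PLA4. The PL libraries of Hoxa10 lay above the PLA libraries, with a ratio of family means of 56.0 (95% counting interval 10.1 to 2214, 1 count in the PLA lines, 28.0 (5.03 to 1107) without PLA replicate 1 and at least 15.7 without PLA replicate 2) and a largest adjusted p of 0.0345 (edgeR), for PLA against PL12, a call lost without any 1 library of PL1, PL12 or PLA (0.0547 to 0.176). Hoxa2 had 1 to 50 counts per library.

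Within HoxC a single gene was active. Hoxc13, the factor of hair, nail and filiform papilla keratins, was at 5.66 and 0.317 CPM in PL1, 0.0409 and 0 CPM in PL12, 0 and 0.0169 CPM in PLA and 0.759 and 30.2 CPM in PLA4. Libraries of the same line differed more than many lines did, 17.8-fold in PL1 and 39.8-fold in PLA4, and PLA4 replicate 2 was by far the highest. PLA4 exceeded PLA by a ratio of 1827 (95% counting interval 506 to 15088, on 2 counts in PLA; adjusted p = 0.0348, edgeR) and PL12 by 756 (209 to 6240, on 2 counts; adjusted p = 0.0355, edgeR). Without PLA4 replicate 2 these ratios were 89.6 (24.8 to 740) and 37.1 (10.3 to 306) and the calls were lost (adjusted p = 0.0802 and 0.0999, edgeR), and without PLA4 replicate 1 they were 3565 (987 to 29435) and 1474 (408 to 12175). Both calls were also lost without any 1 library of PL12 or PLA (0.0627 to 0.189). The first ratio was 914 (253 to 7544) without PLA replicate 1 and at least 635 without PLA replicate 2, and the other 378 (105 to 3120) without PL12 replicate 2 and at least 561 without PL12 replicate 1. Each of the 2 calls held in 10 of 16 settings. Hoxc4, Hoxc5, Hoxc6, Hoxc9 and Hoxc10 had 1 to 17 counts over all libraries together, 28 of their 34 in PLA4 replicate 2.

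Counted by pair of lines, the members called were almost all lower in the PLA line. Hoxb2, Hoxb3 and Hoxb5, at 0 in the PLA lines, passed the count filter through the PL lines and could only be called lower. That limit holds for every count of members lower in the PLA lines. Neighbours in the same cluster are counted separately here, although their levels need not be independent. PLA was lower than PL1 for 12 of the 18 and higher for 0, where 13% and 14.4% of all genes tested were called. PLA was lower than PL12 for 10 and higher for 0 (17.3% and 20.4% of all genes). PLA4 was lower than PL1 for 10 and higher for 0 (3.93% and 4.61%), and lower than PL12 for 10 and higher for Hoxc13 (16.8% and 19.2%). Between the PLA lines, Hoxa4, Hoxb9 and Hoxc13 were higher in PLA4 and Hoxa5 lower (14.1% and 14.9% of all genes). Without 1 library of PL12 the 4 counts over families were 5, 5, 3 and 5 or 6, and without 1 library of PLA they were 3, 6, 3 and 8. PLA4 against PL1 counted 6 without PL1 replicate 2 or PLA4 replicate 1. The 4 calls between the PLA lines became 0 without any 1 library of PL12 or PLA. Of 52 such calls of a member in a pair of lines, 16 held in every setting and 36 were lost in at least 1, with no change of sign. Without a library of PL12 or PLA, 30 to 34 calls were lost, and without a library of PL1 or PLA4 6 to 12. Of the 18, 10 had every PLA library below every PL library, where 7.18% of all genes tested did, and 0 had every PLA library above (8.56%).

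With the line as the replicate, counts were summed per line and 16 members were tested. No member passed an adjusted p of 0.05 in edgeR, as 0% of 18859 genes did, and 8 members had an unadjusted p under 0.05, all lower in the PLA lines, where 4.6% of all genes had. DESeq2 called 6 members on the same profiles, and 1.85% of all genes. For Hoxb3 the log2 difference on summed profiles was -13.26 ± 1.26 (SE, adjusted p = 0.852, edgeR), a fitted value against lines at 0 and thus no bound. For Hoxb4 it was -7.89 ± 1.42 (adjusted p = 0.852, edgeR).

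Several members differed between libraries of the same line. With 0.1 CPM added, Hoxb2, Hoxb5, Hoxb6, Hoxb7, Hoxb8 and Hoxb9 were over 2-fold higher in PL1 replicate 2 than in replicate 1, 6 of the 18 tested (9.39% of all genes), and Hoxc13 was lower (4.02%). In PLA4, Hoxa2, Hoxa4, Hoxa7, Hoxb8, Hoxb9 and Hoxc13 were over 2-fold higher in replicate 2, again 6 of 18 (5.16%), and 0 were lower (9.48%). In PL12 0 members were over 2-fold higher and 0 lower (2.23% and 0.59%), and in PLA 0 and 0 (0.306% each way). Hoxb3, Hoxb4 and Hoxa3 differed less than 1.25-fold between the libraries of PL1.

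Markers of other cells also differed between lines and between libraries of the same line. Of 12 fibroblast markers, 9 had enough counts for the test, and their summed level was 197 and 355 CPM in PL1, 12.3 and 10.6 in PL12, 79.8 and 71.3 in PLA and 592 and 773 in PLA4, mostly from Acta2 except in PL1 replicate 2, where Col1a1 made up most of it. Acta2 was at 194 CPM in PL1 replicate 1 and at 70.9 CPM in replicate 2. In the other direction, PL1 replicate 2 held Col1a1 at 254 CPM, Dcn at 10.7, Col3a1 at 8.48 and Pdgfrb at 4.29, where replicate 1 held 0.575, 0.023, 0.0115 and 0 CPM. Tcf21 and Thy1 were at 0 in both PL1 libraries and Lum at 0 and 0.0176 CPM. In PLA4, replicates 1 and 2 held Col1a1 at 4.36 and 0.436 CPM, Cd68 at 14.9 and 3.57 CPM and Acta2 at 582 and 763 CPM. Of 10 immune markers, summed levels were 111 and 105 CPM in PLA and 5.55 to 27.4 CPM elsewhere. In PLA the sum came mostly from Itgam (51.5 and 48.1 CPM), Cd68 (29.0 and 27.2 CPM) and Cd74 (26.4 and 24.9 CPM), with Ptprc and Cd3e at 0. Elsewhere Itgam was at 0.138 to 1.00 CPM, Cd68 at 1.92 to 14.9 CPM and Cd74 at 0.0346 to 1.37 CPM. Lung epithelial markers summed to 132 and 128 CPM in PLA and to 3.90 to 75.3 CPM elsewhere, and squamous markers were lowest in PL12 (3225 and 3150 CPM, 10802 to 23342 elsewhere). The part of these cells or states in the Hox differences was not tested. Endothelial markers summed to 0.404 to 2.64 CPM in all libraries. Of all 5 marker lists, 1 gene was called in all 4 comparisons, the desmosomal cadherin Dsc3, higher in the PLA lines (1.23% of all genes tested were called higher).

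**Figure D4:**
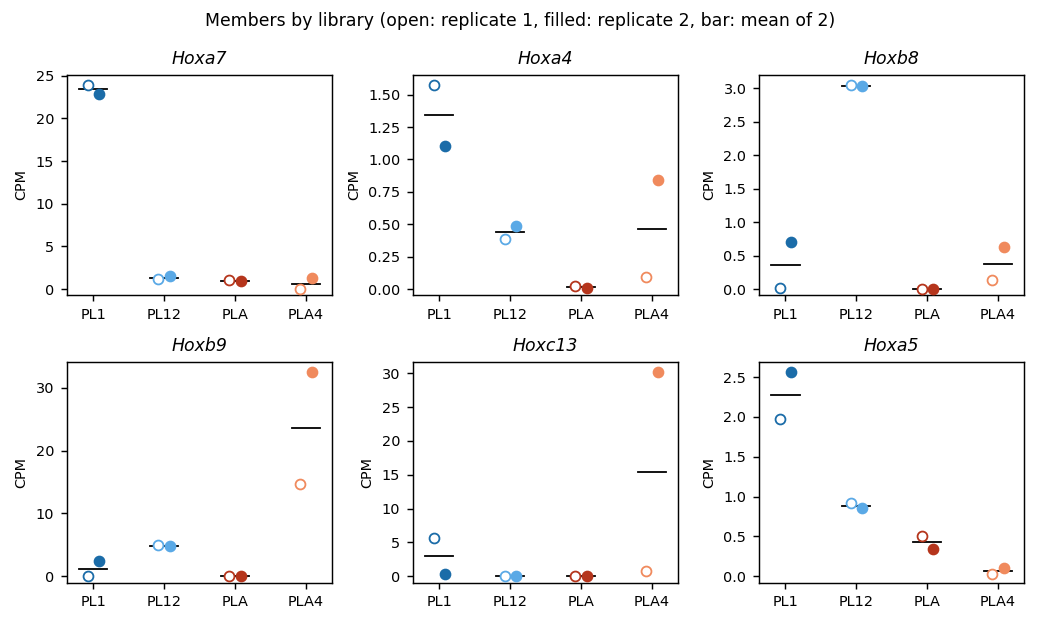
CPM per library for Hoxa7, Hoxa4, Hoxb8, Hoxb9, Hoxc13 and Hoxa5 in the 4 lines (open points replicate 1, filled points replicate 2, bars the mean of 2). Replicates of PL1 and PLA4 lie far apart for Hoxb9 and Hoxc13, those of PL12 and PLA lie together.

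Genes that act on or with the Hox clusters were read as lists beside the members. Of 17 retinoic acid pathway genes, 13 were tested, and Crabp2, Rarg and Aldh1a3 were higher in both PLA lines than in both PL lines, in all 4 comparisons, with 0 lower. Of all genes tested, 1.23% were called higher in all 4 and 0.767% lower. Rarg, a retinoic acid receptor, was at 42.7 to 48.5 CPM in the PL libraries and 95.0 to 116 CPM in the PLA libraries (largest adjusted p = 0.00908, edgeR). Crabp2, which carries retinoic acid to the nucleus, was at 0.0793 to 0.294 against 3.10 to 4.68 CPM (largest adjusted p = 0.00419, edgeR). Aldh1a3, an enzyme that makes retinoic acid, was at 1.01 to 4.72 against 13.3 to 27.7 CPM (largest adjusted p = 0.0328, edgeR). Rarb, a receptor gene that retinoic acid itself induces, was at 2.40 to 7.96 against 11.4 to 28.7 CPM and missed in 1 comparison (adjusted p = 0.0533, edgeR). The libraries of the families did not overlap for these 4 genes, while Hoxb3 and Hoxb4 lay in the opposite order. Of all genes tested, 8.56% had every PLA library above every PL library. The part of these genes in the Hox levels was not tested. Aldh1a1 was highest in PLA4 (89.2 and 34.7 CPM, 0.357 to 6.12 elsewhere). Rxra was lowest in PL12 (62.5 and 64.0 CPM, 149 to 240 elsewhere). Crabp2 and Aldh1a3 were named after their values were seen.

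Of 10 caudal, Evx and other linked homeobox genes, 3 were tested and 0 were called in all 4 comparisons (1.99% of all genes tested). Cdx2, a caudal activator of posterior Hox genes, was at 0.748 and 0.564 CPM in PL1, 14.7 and 16.4 CPM in PL12, 10.1 and 10.2 CPM in PLA and 0.0155 and 0 CPM in PLA4. It was high in PL12, where Hoxb2 to Hoxb9 were on, and in PLA, where they were off or nearly so. The part of Cdx2 in the Hox levels was not tested. Cdx1, Cdx4, Evx1 and Evx2 had 0 counts in all libraries.

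**Figure D5:**
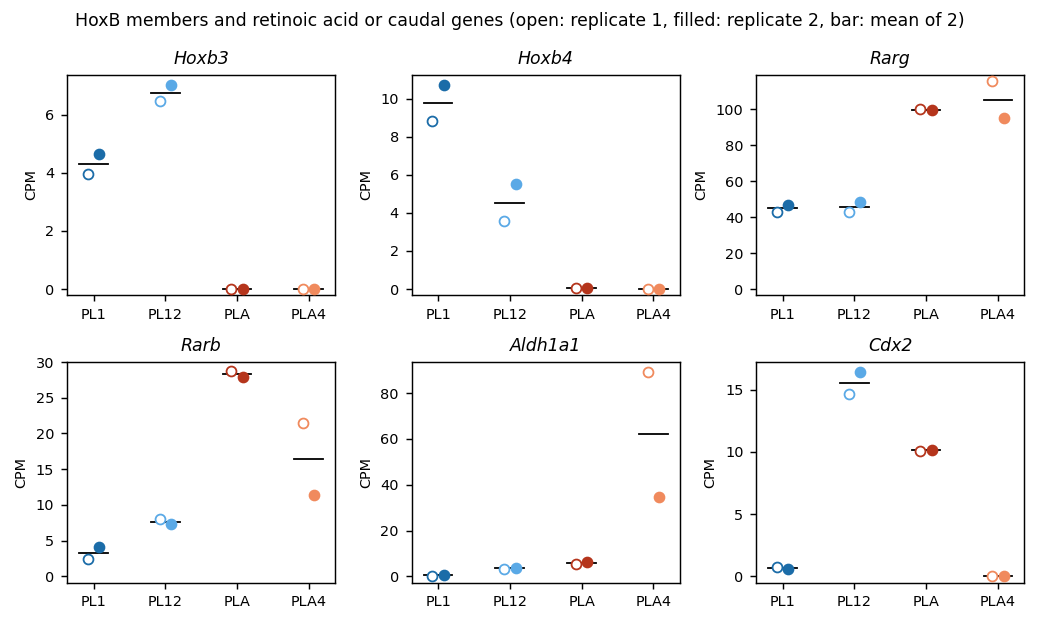
CPM per library for Hoxb3, Hoxb4, Rarg, Rarb, Aldh1a1 and Cdx2 in the 4 lines (open points replicate 1, filled points replicate 2, bars the mean of 2). Hoxb3 and Hoxb4 are at or near 0 in PLA and PLA4, Rarg and Rarb are higher there, and Cdx2 is high in PL12 and PLA.

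Of 9 PBX, MEIS and PREP cofactors, 9 were tested, with Pknox2 higher in all 4 comparisons and 0 lower (1.23% and 0.767% of all genes tested). Pknox2 was at 0.0205 to 0.123 CPM in the PL and 0.865 to 3.42 CPM in the PLA libraries (largest adjusted p = 0.0306, edgeR). Pbx2 was highest in PLA (57.3 and 54.5 CPM, 22.6 to 30.5 elsewhere), and Meis1 ran from 8.51 to 16.9 CPM over all libraries. Pknox2 was named after its values were seen.

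The Polycomb and Trithorax lists showed no member called in all 4 comparisons, 0 of 12 for repressive complex 2, 0 of 19 for complex 1 and 0 of 15 for Trithorax and H3K27 demethylases. Of all genes tested, 1.99% were called. Ezh2, the methyltransferase that places the silencing mark, was lowest in PLA (32.6 and 31.6 CPM), against 64.5 and 91.3 CPM in PLA4. The PL libraries ran from 81.8 to 119 CPM. Phf1, an accessory subunit, was highest in PLA (27.7 and 28.5 CPM, 5.37 to 7.92 elsewhere). Jarid2 was highest in PLA4 (110 and 132 CPM), with 75.3 and 48.5 in PL1 and 24.4 to 27.8 in PL12 and PLA. Kdm6b, which removes H3K27 methylation, was lowest in PL12 (26.0 and 27.7 CPM, 60.5 to 71.9 elsewhere), the line with most HoxB genes on. The part of the Polycomb and Trithorax genes in the Hox levels was not tested.

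Of 16 non-coding genes of the clusters, 5 were tested, with Hoxb3os lower in all 4 comparisons (largest adjusted p = 0.0349, edgeR) and 0 higher. Over all genes tested, 0.767% were called lower in all 4 and 1.23% higher. Hoxb3os shares exonic bases with Hoxb3 and Hoxb2, so its call cannot be told apart from theirs. Hotairm1 was at 0.491 to 3.14 CPM in all libraries and did not differ by the test over lines (adjusted p = 0.128, edgeR). Hotair, Hottip and Haglr had 0 counts. Of 16 genes that flank the clusters, 14 were tested and 0 were called in all 4 comparisons (1.99% of all genes tested). Lnpk, beside HoxD, was at 19.3 to 46.3 CPM in every library, although HoxD itself was silent.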

How the data were processed

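RNA-seq of 8 libraries, 2 from each of 4 mouse lung squamous carcinoma lines, was analysed from the gene tables of expected counts and TPM that the authors deposited, per the file headers in RSEM's layout. The submitters' processing notes name FastQC, STAR, RSEM, DESeq2 and the build GRCm38. The annotation release and strand setting are not given in the sources used here. Groups are the lines named in the labels. Expected counts were rounded to whole numbers, scaled by TMM (CPM throughout) and fitted with edgeR 4.0.16 (limma 3.58.1, R 4.3.3): quasi-likelihood, 1 mean per line, 4 residual degrees of freedom, filterByExpr with a minimum count of 10 and a minimum total of 15, and Benjamini-Hochberg adjustment over 18648 genes with a threshold of 0.05. Counts summed per line were fitted likewise, with the line as replicate (18859 genes). Deposited TPM served for levels between genes. Ratios are of mean CPM. A group at 0 was set to a floor of 3 counts over that group, and 95% exact intervals cover counting error only. Depths of 48857960 to 142458281 counts set the precision.

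The Hox members, the lists and the markers were chosen with earlier results of these data known. Every member reaching a mean of 1 TPM in a line, or called in all 4 comparisons of a PLA with a PL line, is named with its values. From each list up to 4 genes with the smallest p in the test over lines and a mean of at least 5 CPM are named, plus markers as needed. Some genes that the rule names are not reported here. Gene positions are GENCODE M21 on GRCm38, and promoter windows are RefSeq on GRCm38.p6. The code was tested on simulated data. Alternatives were DESeq2 1.42.0, DESeq2's size factors, other filters, a fold minimum, a replicate block and leaving out libraries or lines.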

Additional observations from a re-analysis of the deposited data

How the results depend on the processing

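No called result changed sign in any setting. Several ratios that were not called changed direction without PLA4 replicate 2. Among them, Hoxc13 in PLA4 over PL1 went from 5.17 to 0.254 and Hoxb8 from 1.07 to 0.372. Hoxa2 in PLA4 over PLA went from 2.36 to 0.263, and Hoxa4 in PLA4 over PL12 from 1.06 to 0.212. The ratio of family means of Hoxc13, PL over PLA lines, went from 0.195 to 3.92. Over the 17 members called among lines, 7 passed in every setting and 10 missed in at least 1. Counts below follow the order among lines, PL12 against PL1, PLA4 against PLA, PLA against PL1, PLA against PL12, PLA4 against PL1, PLA4 against PL12 and all 4 comparisons (17, 5, 4, 12, 10, 10, 11 and 5 as reported). DESeq2 gave 8 for PL12 against PL1, 7 for PLA4 against PLA and 6 on summed profiles, where edgeR gave 0 (31.1%, 36.4% and 1.85% of all genes by DESeq2). With a mean of at least 1 CPM, where fewer members are tested, counts were 8, 2, 2, 4, 5, 4, 5 and 3. Without PL1 replicate 1 and PLA4 replicate 2 together they were 18, 13, 7, 18, 14, 17, 16 and 13, and without PL1 replicate 2 and PLA4 replicate 1 together 18, 15, 8, 15, 14, 16, 13 and 9. Calls over all genes grew too, to 78.4%, 51.5%, 54.9%, 52.7%, 63.9%, 44.2%, 59.9% and 12.5% in the former and 78.1%, 51.2%, 56.7%, 56.5%, 64.5%, 38.1%, 58.8% and 10.7% in the latter, from 52.9%, 23.7%, 29%, 27.3%, 37.7%, 8.54%, 36% and 1.99%. Leaving out 1 library gave 9 to 17, 0 to 9, 0 to 5, 3 to 15, 5 to 12, 3 to 12, 5 to 13 and 2 to 6. On summed profiles it gave 0 throughout, as did leaving out a line. Members at the level of 1 TPM numbered 8 to 9 in PL1, 9 to 10 in PL12, 1 in PLA and 2 to 4 in PLA4. With 2 TPM PL1 held 5, and with 0.5 TPM PLA held 2. Other settings left each count within 1.5 times, and the cause of the shifts was not tested.

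A replicate block gave 15, 2, 2, 10, 9, 4, 9 and 2. The deviations of libraries with the same number correlated at -0.194 to 0.0148 between lines, so no shared shift by number was seen. With 2 libraries a line, these values cannot tell whether libraries were prepared in pairs. The block was not run on summed profiles, which carry no replicate number.

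A line with 1 library left is assumed to vary like the others. With 2 libraries a line and 2 lines a family, the lines are not replicates of a genotype that the labels spell out, and family and line cannot be told apart. Levels under what 3 counts give in a library (0.0208 to 0.0614 CPM) rest on 1 or 2 counts and carry a large counting error, as do ratios built on them.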

Other observations

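Meis2, a cofactor that binds with HOX proteins, was at 0.170 CPM in PLA4 replicate 1 and at 30.5 CPM in replicate 2. It was singled out after its values were seen.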
